A study of Homo sapiens with 6 samples.

Results

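Genes of epithelial junctions, keratins and surface adhesion were compared between cultures of HepG2 cells, an established epithelial line from a human liver tumour. The genes were taken by symbol from a list of 44 cadherins, claudins, other tight junction, desmosome and gap junction proteins, catenins, keratins, carcinoembryonic antigen-related adhesion molecules (CEACAMs), epithelial regulators and members of the matriptase system. Of these 37 have a row among the 19846 genes of the deposited table, and 33 of the 15314 genes tested are among them. CDH17, CLDN7, GJA1, CEACAM5, CEACAM6, ESRP1 and GRHL2 were not analysed here, and CLDN9, KRT7, KRT20 and SPINT2 had too few counts to be tested. RNA sequencing covered 3 samples of cells from an interwoven hollow fiber bioreactor (3D) and 3 samples of cells from plates (2D), with no further treatment or genetic change given for either group. The 3D cells were perfused with recirculating medium at 23.5 mL/min and fed at 2 mL/hour, in EMEM mixed evenly with DMEM and holding 10% serum, while the 2D cells grew in EMEM that was renewed every 2 days. The serum content of the 2D medium is not given in the sources used here. Form of culture, medium and feeding cannot be told apart. All samples are 1 tumour cell line, and nothing in the labels ties a sample to a culture, plate or bioreactor of its own, so the p-values measure the spread between these libraries, which may be technical.

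Epithelial cells hold together through a junctional belt. At adherens junctions, cadherins bind across the cell gap and reach actin through catenins, tight junctions of claudins and occludin seal the gap above them, desmosomes tie keratin filaments of neighbouring cells together, and gap junctions of connexins pass small molecules. In hepatocytes this belt closes off the bile canaliculus, and the keratin pair KRT8 and KRT18 fills the cytoplasm, whereas KRT7 and KRT19 are keratins of bile duct cells.

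Library totals ran from 9530795 to 15897621 counts in 3D and from 16270361 to 17943513 in 2D. Levels are CPM, counts scaled to library size after TMM normalization, fold changes are 3D over 2D, and a gene was called at an edgeR adjusted p under 0.05. Gene names and protein names alike stand for RNA in the results, and protein was not measured. The 3D replicate 1 had the fewest counts and lay apart from the other 3D libraries on the second principal component, at 37.9 against −17.2 and −27.5 (that component held 14.1% of the variance). The cell line was checked against hepatocyte markers. Summed over 10 genes such as ALB, APOA1 and HNF4A, they held 32788 to 52499.6 CPM in 3D and 43949 to 47872 CPM in 2D. Called higher in 3D were 2 (20%, beside 19.0% of all genes tested), APOA1 (log2 1.39) and TF (log2 0.70). Called lower were 2 (20%, beside 17.6%), APOB (log2 −1.42) and AHSG (log2 −0.87), so the sum hides changes in both directions. Both shares were near those of all genes. With transcript length and GC content corrected HNF4A was also called lower (log2 −0.44, edgeR adjusted p = 0.0164) and AFP higher (log2 0.58, edgeR adjusted p = 0.0242).

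The junction and keratin genes did not move as a block. E-cadherin, several claudins, the plaque proteins JUP and PKP3, the keratins KRT8 and KRT19 and the protease inhibitor SPINT1 were higher in 3D, while CEACAM1, CLDN1, CLDN12, occludin, ZO-1, desmoplakin and desmoglein 2 were lower. The genes were chosen with earlier results of these data known, so their shares beside those of all genes are description and not a test. Of the 33 genes tested, 15 rose in 3D (45.5%), beside 19.0% of all genes tested, and 8 fell (24.2%), beside 17.6%. Called and at least doubled were 9, where 7.20% of all genes were, and called and at least halved 3, where 4.49% were. After correction for transcript length and GC content 6 were called and at least doubled, beside 5.58% of all genes, and 1 was called and at least halved, beside 4.24%. The 3D and 2D values did not overlap in 28 of the 33, where 50.5% of all genes did not: 19 lay higher in 3D, beside 25.6%, and 9 lower, beside 24.9%. The median log2 fold change was 0.30 over the 33 genes and 0.02 over all genes tested. Together the 37 genes took 0.531, 0.441 and 0.427% of the counts in 3D, against 0.463, 0.445 and 0.464% in 2D. In bulk RNA a change in the number of cells that carry a transcript and a change in its level per cell cannot be told apart.

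**Figure D1:**
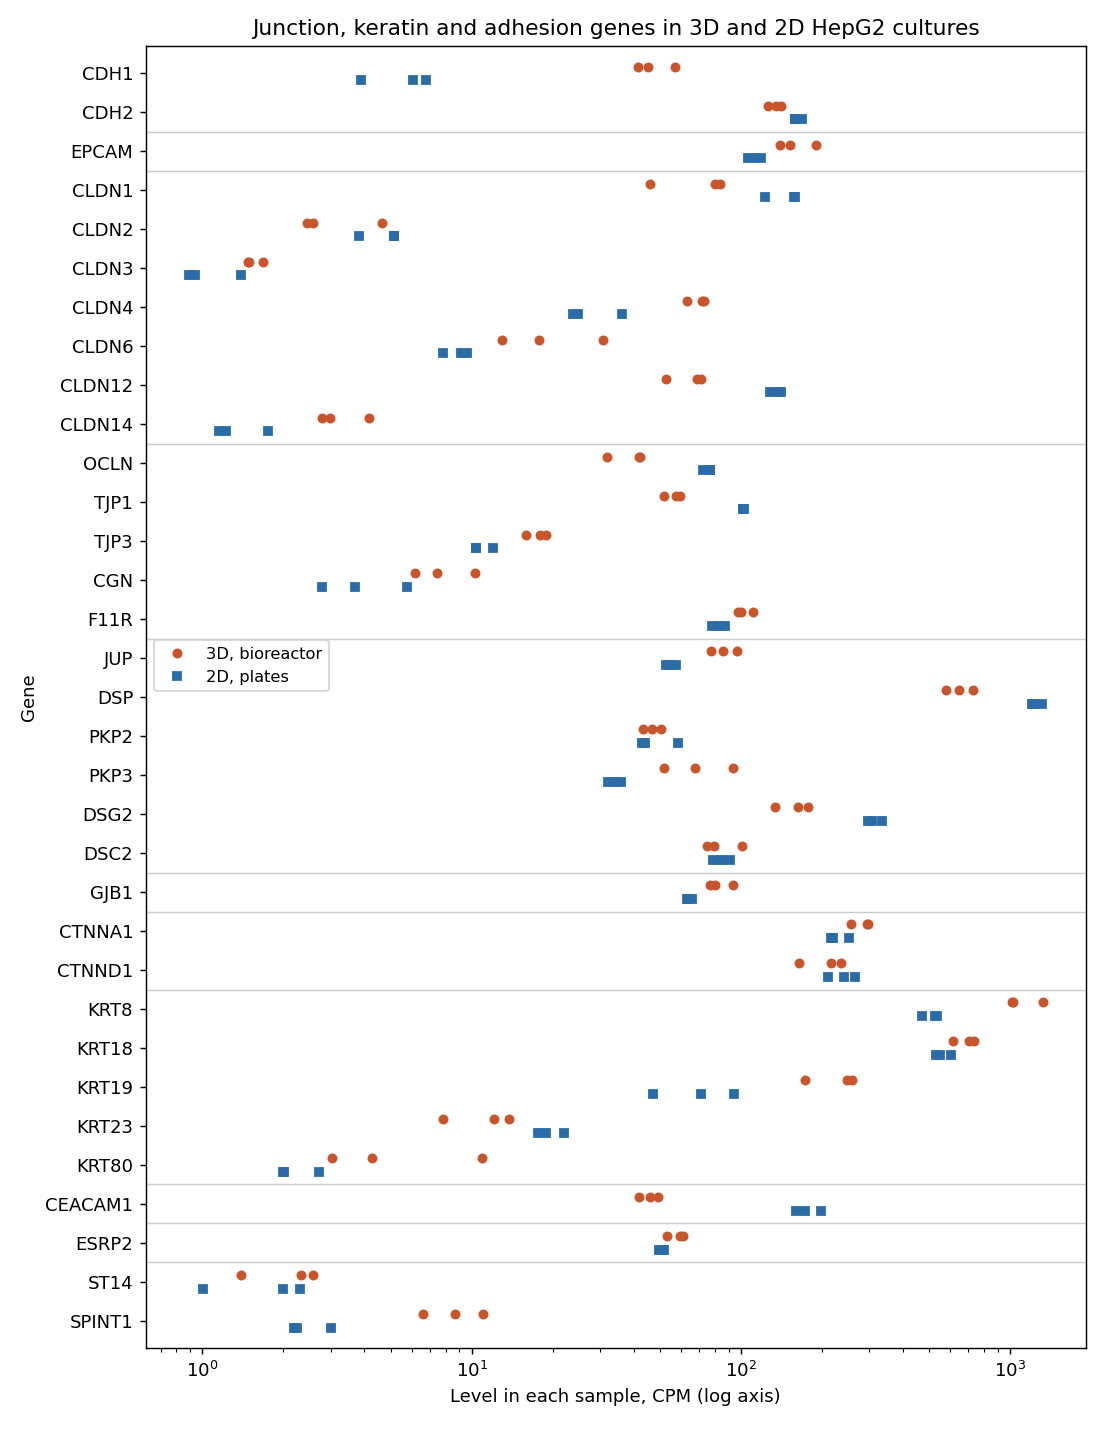
Level of each of the 33 tested genes in every sample, in CPM on a log axis, with the 3D samples (orange circles) drawn above the 2D samples (blue squares) and lines between functional classes. CDH1, KRT19 and SPINT1 lie to the right in 3D, and CEACAM1, DSP, DSG2 and TJP1 to the left, with no overlap of the groups.

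Among the cadherins, CDH1 (chromosome 16, 68737225 to 68835548, plus strand in hg38), which encodes E-cadherin, stood at 41.7, 45.3 and 56.9 CPM in 3D, against 3.88, 6.79 and 6.05 CPM in 2D. Every 3D sample was above every 2D sample, and the 8.59-fold rise was the largest of the 33 genes (log2 3.10, SE 0.21, edgeR adjusted p = 1.45e-05). CDH2, N-cadherin, which hepatocytes also carry, was at 141, 135 and 126 CPM in 3D, against 169, 159 and 159 CPM in 2D. Its 3D values were all below the 2D values but it was not called (log2 −0.27, SE 0.11, edgeR adjusted p = 0.0747), and without 3D replicate 1 its log2 fold change was −0.33 at an edgeR adjusted p = 0.0355. With length and GC content corrected the CDH2 difference was log2 −0.03 (edgeR adjusted p = 0.818). Levels of different genes are compared per length, as counts divided by transcript length. On that scale, of the CDH1 and CDH2 total, CDH1 made up 26.5, 29 and 35.6% in 3D, against 2.72, 4.96 and 4.44% in 2D. The share of CDH1 was 30.4% ± 4.70 in 3D and 4.04% ± 1.17 in 2D (SD, n = 3 each). CDH2 stayed the more abundant transcript of the pair in all 6 samples, at 2.35 ± 0.492 times CDH1 in 3D and 25.5 ± 8.95 times in 2D.

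Neither CTNND1 nor CTNNA1, the genes classed here as catenins, was called. JUP, plakoglobin, also a catenin, was called higher and is given with the desmosome genes below. CTNND1, p120-catenin, which binds cadherin tails and holds cadherins at the surface, was at 217, 236 and 165 CPM in 3D, against 242, 211 and 267 CPM in 2D (log2 −0.22, SE 0.15, edgeR adjusted p = 0.283), so the groups overlapped. CTNNA1, alpha-catenin, which links the complex to actin, averaged 283 ± 23.1 CPM in 3D and 230.4 ± 20.0 CPM in 2D (SD, n = 3 each; edgeR adjusted p = 0.0824). With length and GC content corrected it was called higher (log2 0.42, edgeR adjusted p = 0.0122). EPCAM, an adhesion glycoprotein of fetal liver progenitors and bile ducts, rose to 152, 139 and 191 CPM in 3D, against 112, 119 and 106 CPM in 2D (log2 0.51, SE 0.14, edgeR adjusted p = 0.0126). The call was lost without 2D replicate 1 (adjusted p = 0.0565, edgeR) and without 2D replicate 3 (adjusted p = 0.0578).

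Claudins, the strand-forming proteins of tight junctions, split into 3 that rose, 2 that fell and 2 that were not called. CLDN4 rose 2.46-fold, with 71.9, 73.2 and 63.3 CPM in 3D, against 23.7, 24.8 and 36.1 CPM in 2D (log2 1.30, SE 0.17, edgeR adjusted p = 0.000244). CLDN6, a claudin of fetal tissue and some tumours, rose to 30.7, 17.8 and 13.0 CPM in 3D, against 9.14, 7.82 and 9.60 CPM in 2D (log2 1.2, SE 0.28, edgeR adjusted p = 0.00801). In 3D its values spread widely, replicate 1 being the highest, and all lay above those in 2D. Without 3D replicate 1 CLDN6 was still called, at log2 0.78 (edgeR adjusted p = 0.00938). CLDN14 rose at a low level, with 2.98, 2.78 and 4.15 CPM in 3D, against 1.75, 1.15 and 1.22 CPM in 2D (log2 1.26, SE 0.32, edgeR adjusted p = 0.00999), and without 2D replicate 2 its log2 fold change was 1.13 at an edgeR adjusted p = 0.0515.

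The most abundant claudins of the plate cultures fell. CLDN1, a barrier-forming claudin of hepatocytes, fell to 45.9, 83.6 and 80.2 CPM in 3D, against 158, 123 and 159 CPM in 2D (log2 −1.06, SE 0.21, edgeR adjusted p = 0.00386). CLDN12 fell to 52.6, 68.5 and 70.9 CPM in 3D, against 128, 142 and 138 CPM in 2D (log2 −1.08, SE 0.14, edgeR adjusted p = 0.000215). In both genes the highest 3D sample lay well below the lowest 2D sample. On the same strand CLDN12 shares 5.1% of its exonic bases with GTPBP10 and 3.0% with CDK14, both in the table. It also shares 5.5% with AC006153.1 and 4.1% with AC002456.2. CLDN2, which forms cation pores, averaged 3.22 ± 1.23 CPM in 3D and 4.71 ± 0.773 CPM in 2D and CLDN3 1.55 ± 0.118 CPM in 3D and 1.07 ± 0.279 CPM in 2D (SD, n = 3 each). CLDN2 shares 10.0% of its exonic bases with RIPPLY1 on the opposite strand. Neither was called (edgeR adjusted p = 0.175 for CLDN2 and 0.270 for CLDN3), although without 3D replicate 3 the log2 fold change was −0.91 at an edgeR adjusted p = 0.0328 for CLDN2. CLDN9, a neighbour of CLDN6 on chromosome 16, had at most 16 counts in a library.

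Per length, CLDN1 and CLDN12 together dominated the claudin counts in 2D. CLDN1 held 18.1, 30.6 and 31.2% in 3D, against 46.5, 38.8 and 43.8% in 2D, and CLDN12 24.1% ± 3.45 in 3D and 39.6% ± 3.87 in 2D (SD, n = 3 each). CLDN4 took 24.0, 22.7 and 20.9% in 3D, against 5.91, 6.63 and 8.45% in 2D. CLDN6 took 30.7, 16.5 and 12.9% in 3D, against 6.84, 6.28 and 6.74% in 2D. In 3D the claudin counts were spread over CLDN1, CLDN12, CLDN4 and CLDN6, whose mean shares lay between 20.0% and 26.6%, and the order of these 4 differed between samples.

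**Figure D2:**
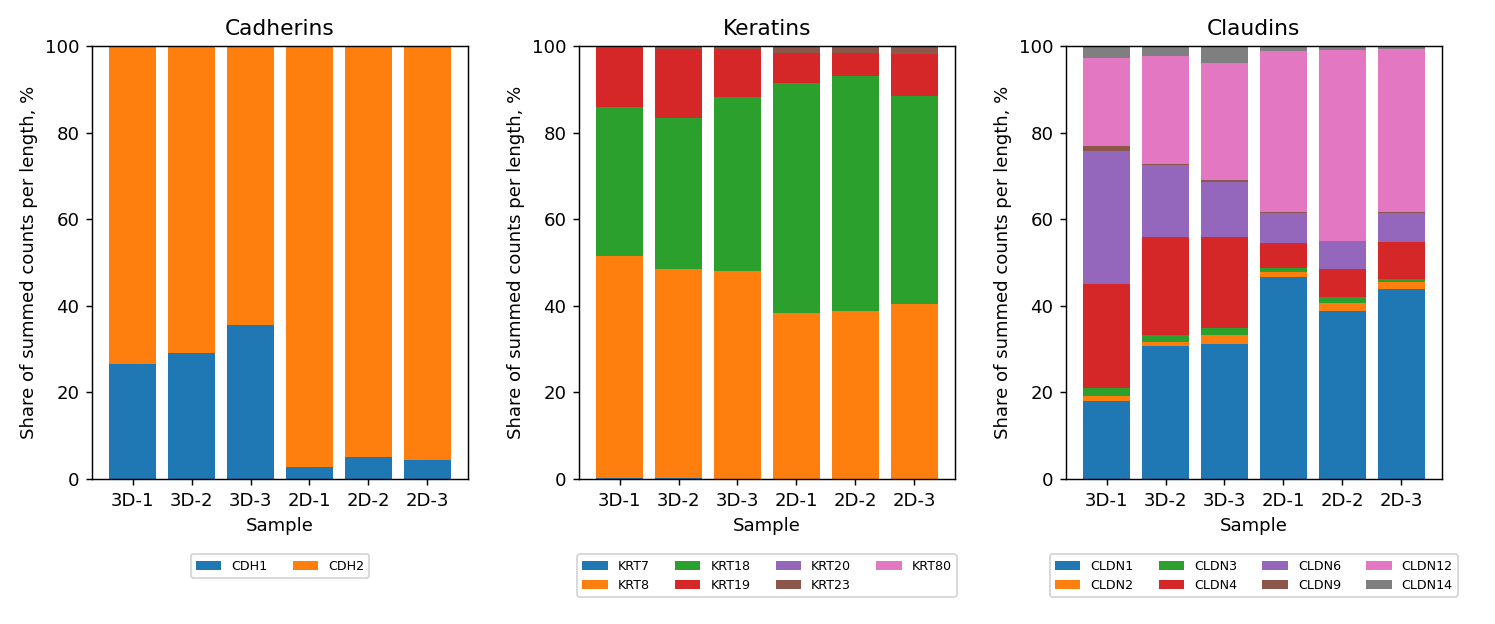
Share of each gene in the summed counts per length of the cadherins, keratins and claudins of the list, in percent, for each 3D sample (left) and 2D sample (right). CDH1 takes 26.5% to 35.6% of the cadherin bars in 3D and 2.72% to 4.96% in 2D, and KRT19, CLDN4 and CLDN6 take larger shares in every 3D bar than in any 2D bar.

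The remaining tight junction genes also divided. OCLN, occludin, a membrane protein of the strands, fell to 31.7, 41.9 and 42.0 CPM in 3D, against 76.7, 77.0 and 72.5 CPM in 2D (log2 −0.96, SE 0.14, edgeR adjusted p = 0.000394). TJP1, or ZO-1, the scaffold under the strands, fell to 57.5, 59.4 and 51.7 CPM in 3D, against 102, 102 and 103 CPM in 2D (log2 −0.86, SE 0.11, edgeR adjusted p = 0.000278). Its 2D values lay close together and all 3D values were far below them. TJP3, or ZO-3, a related scaffold, rose to 18.0, 15.9 and 18.9 CPM in 3D, against 10.4, 10.4 and 12.0 CPM in 2D (log2 0.68, SE 0.16, edgeR adjusted p = 0.00650). CGN, cingulin, which joins the scaffold to myosin, rose as well, averaging 7.99 ± 2.13 CPM in 3D and 4.08 ± 1.53 CPM in 2D (SD, n = 3 each; log2 0.98, SE 0.29, edgeR adjusted p = 0.0228). Its call was lost without 2D replicate 1, 2D replicate 3 or 3D replicate 2, at edgeR adjusted p-values of 0.0830, 0.0875 and 0.105. F11R, the adhesion molecule JAM-A, averaged 103 ± 6.97 CPM in 3D and 82.6 ± 4.55 CPM in 2D and was only just called (log2 0.32, SE 0.11, edgeR adjusted p = 0.0496). It lost the call in each of the 5 runs that left out any library but 3D replicate 1, with adjusted p-values up to 0.209 (edgeR). With length and GC content corrected its value was log2 0.53 (edgeR adjusted p = 0.00387). An overlapping gene on the same strand shares 36.6% of its exonic bases in GENCODE, so its counts are uncertain.

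Desmosome genes showed opposite changes within 1 structure. DSP (desmoplakin, chromosome 6, 7541575 to 7586717, plus strand), the plakin that anchors keratin filaments, fell to 728, 644 and 579.7 CPM in 3D, against 1319, 1209.6 and 1224 CPM in 2D (log2 −0.94, SE 0.14, edgeR adjusted p = 0.00046). DSG2, the desmosomal cadherin desmoglein 2, fell to 163, 178 and 134 CPM in 3D, against 306, 333 and 296 CPM in 2D (log2 −0.98, SE 0.13, edgeR adjusted p = 0.000348). In both genes the 2D samples were higher without overlap. JUP, plakoglobin, which binds desmosomal cadherins on the inner side, rose to 97.0, 85.5 and 77.6 CPM in 3D, against 52.5, 54.6 and 57.2 CPM in 2D (log2 0.66, SE 0.12, edgeR adjusted p = 0.00189). PKP3, a plakophilin that brings desmoplakin to the plaque, rose to 93.2, 52.0 and 67.4 CPM in 3D, against 35.7, 32.1 and 33.7 CPM in 2D (log2 1.06, SE 0.19, edgeR adjusted p = 0.00151). The 3D values of PKP3 spread more than those in 2D, with replicate 1 highest. DSC2, desmocollin 2, averaged 85.3 ± 14.1 CPM in 3D and 85.1 ± 6.15 CPM in 2D, and PKP2, a second plakophilin, 46.9 ± 3.62 CPM in 3D and 48.5 ± 8.66 CPM in 2D (SD, n = 3 each). Neither was called (edgeR adjusted p = 0.983 for DSC2 and 0.819 for PKP2). With length and GC content corrected DSC2 was called higher (log2 0.36, edgeR adjusted p = 0.0112).

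Among these genes the proportions shifted. Counts per length of DSP over JUP were 2.81, 2.82 and 2.80 in 3D, against 9.40, 8.30 and 8.01 in 2D, so DSP transcripts remained the more abundant in every sample. These ratios are not corrected for the trend of change with length and GC content. With that correction the changes were smaller, at log2 −0.63 for DSP and log2 0.48 for JUP. Of the DSG2 and DSC2 total per length, DSG2 held 72.1% ± 2.67 in 3D and 83.6% ± 1.5 in 2D (SD, n = 3 each). Of the PKP2 and PKP3 total, PKP3 held 73.7, 62.7 and 70.3% in 3D, against 55.3, 53.1 and 46.8% in 2D.

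The promoters of 4 genes that fell, both desmosome genes and the tight junction genes TJP1 and OCLN, are shown because each holds the E-box CACCTG, which reads CAGGTG on the opposite strand and is the hexamer bound by SNAIL and ZEB repressors of epithelial genes. Each is the 250 bases before the first start site of the gene in RefSeq (GRCh38.p14), 5′ to 3′ on the gene's strand, with E-boxes in capitals. They lie at chr6:7541421-7541670, plus strand, for DSP, at chr18:31497927-31498176, plus strand, for DSG2, at chr15:29969050-29969299, minus strand, for TJP1, and at chr5:69492297-69492546, plus strand, for OCLN.
DSP: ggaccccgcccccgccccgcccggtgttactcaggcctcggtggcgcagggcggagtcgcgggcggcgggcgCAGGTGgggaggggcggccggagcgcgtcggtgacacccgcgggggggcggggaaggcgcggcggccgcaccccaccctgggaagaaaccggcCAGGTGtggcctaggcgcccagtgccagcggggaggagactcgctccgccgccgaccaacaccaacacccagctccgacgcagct
DSG2: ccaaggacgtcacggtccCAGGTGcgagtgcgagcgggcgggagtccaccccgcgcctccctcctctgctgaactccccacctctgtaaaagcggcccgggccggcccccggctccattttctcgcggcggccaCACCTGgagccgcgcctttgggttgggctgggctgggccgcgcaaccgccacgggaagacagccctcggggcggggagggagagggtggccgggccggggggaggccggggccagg
TJP1: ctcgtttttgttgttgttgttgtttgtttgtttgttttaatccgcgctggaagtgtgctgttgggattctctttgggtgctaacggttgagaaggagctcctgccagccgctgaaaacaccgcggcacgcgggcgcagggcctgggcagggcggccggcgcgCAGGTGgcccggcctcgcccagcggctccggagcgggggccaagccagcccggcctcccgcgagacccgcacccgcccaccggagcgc
OCLN: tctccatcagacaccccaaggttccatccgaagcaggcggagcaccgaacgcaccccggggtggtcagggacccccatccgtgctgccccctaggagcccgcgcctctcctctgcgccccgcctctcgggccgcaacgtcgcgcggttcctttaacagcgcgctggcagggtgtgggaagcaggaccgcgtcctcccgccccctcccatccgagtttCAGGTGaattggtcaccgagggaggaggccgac
Counted from the start site, with −1 as the last base before it, the E-boxes of DSP began at −178 and −85 and those of DSG2 at −232 and −116. The E-box of TJP1 began at −88 and that of OCLN at −33. The table has 3 further TJP1 promoters, downstream of this one, and none of the 3 held the hexamer. A further OCLN promoter, starting downstream of the one shown, held 2, beginning at −133 and at base 36 after its start. In windows from 250 bases before to 50 after each start, 17 of 42 promoters of the listed genes held the hexamer on either strand (40.5%), beside 20.6% of all 35116 promoters in the table. These promoters belong to 26 of the 44 listed genes. By gene, 4 of 7 that fell and 6 of 9 that rose held it in at least 1 promoter, so the hexamer occurred among genes of either direction. The share per gene over all genes was not computed. The 20.6% is per promoter and cannot be set beside these counts, since some genes have several promoters. The motif AACCGGTT of grainyhead-like factors, the same on both strands, was in 0 of the 42 windows and in 0.134% of all.

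GJB1, connexin 32, the main gap junction protein of hepatocytes, rose to 76.7, 80.4 and 93.4 CPM in 3D, against 63.1, 63.6 and 66.0 CPM in 2D (log2 0.38, SE 0.12, edgeR adjusted p = 0.0281). The groups did not overlap, but the call was lost after correction for GC content and length (log2 0.10, edgeR adjusted p = 0.504). It was also lost without any single 2D library or 3D replicate 3, at edgeR adjusted p-values of 0.0771 to 0.114.

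Keratins form filaments as pairs of 1 type I and 1 type II chain. KRT8 (type II, chromosome 12, 52897187 to 52949954, minus strand) rose to 1323, 1023 and 1013 CPM in 3D, against 526, 469.7 and 535 CPM in 2D (log2 1.13, SE 0.15, edgeR adjusted p = 0.000261). KRT18 (chromosome 12, 52948871 to 52952901, plus strand), its type I partner, was at 738, 614 and 701 CPM in 3D, against 604, 548 and 530.4 CPM in 2D and was not called (log2 0.29, SE 0.13, edgeR adjusted p = 0.106). The 3D values of KRT18 were all above those in 2D, by a smaller margin than for KRT8. With length and GC content corrected the KRT18 difference had the opposite sign (log2 −0.03, edgeR adjusted p = 0.844). Counts per length of KRT8 over KRT18 were 1.49, 1.38 and 1.2 in 3D, against 0.723, 0.711 and 0.837 in 2D. KRT19, a type I keratin of bile ducts and progenitors, rose 3.20-fold, with 258, 248 and 174 CPM in 3D, against 71.4, 47.3 and 94.0 CPM in 2D (log2 1.68, SE 0.25, edgeR adjusted p = 0.00106). The 2D values of KRT19 differed among themselves, replicate 2 being the lowest and replicate 3 the highest, and all lay below the 3D values. Summed over the keratins of the list, type II over type I counts per length were 1.07, 0.942 and 0.928 in 3D, against 0.624, 0.633 and 0.679 in 2D. The total for the type II chains was close to that for the type I chains in 3D and lower than it in 2D.

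Among minor keratins KRT23 fell to 7.84, 13.8 and 12.1 CPM in 3D, against 19.0, 17.6 and 22.0 CPM in 2D (log2 −0.79, SE 0.20, edgeR adjusted p = 0.0112), and KRT80 rose to 10.9, 4.26 and 3.02 CPM in 3D, against 2.00, 2.00 and 2.72 CPM in 2D (log2 1.40, SE 0.44, edgeR adjusted p = 0.0309). The KRT80 change rested on 3D replicate 1, without which the log2 fold change was 0.69 at an edgeR adjusted p = 0.0976. KRT80 was not called without any single 2D library either, at edgeR adjusted p-values of 0.0506 to 0.103. KRT7, the other bile duct keratin, had 23, 19 and 5 counts in 3D, against 5, 5 and 0 counts in 2D. KRT20, an intestinal keratin, had at most 5 counts in any library. KRT8 and KRT18 overlap on opposite strands over 525 exonic bases in GENCODE, which is 7.6% of the exonic bases of KRT8 and 16.3% of those of KRT18, and the handling of strand is not given in the sources used here. Both also have many processed copies elsewhere in the genome. The 18 KRT8 copies in the table summed to 111 ± 33.5 CPM in 3D and 47.4 ± 5.90 CPM in 2D (SD, n = 3 each). They held 7.95% to 10.1% of the counts of KRT8 and its copies, while the 16 KRT18 copies held 1.39% to 3.84%. The counts of both genes are therefore uncertain, to an extent that these shares do not give.

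Among markers of other cell types, the summed levels of the intestinal and fibroblast markers overlapped between the groups. The sums of bile duct markers and of endothelial and blood markers were higher in 3D. Of 11 bile duct markers, chosen without KRT7 and KRT19, 8 were in the table and tested. Of these 5 rose (62.5%, beside 19.0% of all genes) and SOX9 fell (12.5%, beside 17.6%), with sums of 963 to 1252 CPM in 3D and 738 to 917 CPM in 2D. CFTR, AQP1 and MUC1 were not analysed here. The 5 intestinal markers in the table summed to 531 to 563 CPM in 3D and 483 to 569 CPM in 2D, nearly all of it VIL1 and LGR5. This sum hides changes in both directions. VIL1 rose (log2 0.47, edgeR adjusted p = 0.0178), a call lost after correction for length and GC content (edgeR adjusted p = 0.0694), and LGR5 fell (log2 −0.61, edgeR adjusted p = 0.00371). Fibroblast markers, of which 3 of 8 were in the table, summed to 9.28 to 21.2 CPM in 3D and 7.46 to 15.8 CPM in 2D, of which THY1 had at most 4 counts in a library, COL1A1 averaged 13.8 ± 6.62 CPM in 3D and 1.26 ± 0.739 CPM in 2D and PDGFRB 3.21 ± 0.305 CPM in 3D and 10.6 ± 3.39 CPM in 2D. Endothelial and blood markers, 5 of 8 in the table, summed to 27.0 to 49.9 CPM in 3D and 10.3 to 15.9 CPM in 2D, most of it CD68, which rose (log2 2.07, edgeR adjusted p = 0.000191). The other 4, PECAM1, CDH5, VWF and CD14, were not called, and their groups overlapped. The part of these cell types in the results was not tested.

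CEACAM1 (chromosome 19, 42507304 to 42561234, minus strand), a glycoprotein of the hepatocyte bile canaliculus that promotes insulin clearance, had the largest fall of the 33 genes. It stood at 46.0, 41.8 and 49.4 CPM in 3D, against 159.8, 199 and 173 CPM in 2D. The highest 3D sample was far below the lowest 2D sample, and 3D cells held 0.258 of the 2D level (log2 −1.96, SE 0.13, edgeR adjusted p = 1.4e-05). With length and GC content corrected the value was −1.96.

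In the matriptase system, SPINT1, a Kunitz inhibitor of the surface protease matriptase, rose 3.49-fold, with 11, 6.59 and 8.65 CPM in 3D, against 2.25, 2.18 and 3.00 CPM in 2D (log2 1.80, SE 0.26, edgeR adjusted p = 0.000441). ST14, matriptase itself, was low, at 1.39, 2.58 and 2.32 CPM in 3D, against 1.00, 2.30 and 2.00 CPM in 2D, and was not called (log2 0.26, SE 0.38, edgeR adjusted p = 0.620). Counts per length of ST14 over SPINT1 were 0.0982, 0.305 and 0.209 in 3D, against 0.346, 0.822 and 0.519 in 2D. Per length, ST14 transcripts were below those of SPINT1 in every sample, and the highest 3D ratio was just below the lowest 2D ratio. SPINT2, the related inhibitor, had 11, 10 and 5 counts in 3D, against 1, 2 and 3 counts in 2D, too few to test.

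Other genes of surface proteolysis, 15 in a list chosen with earlier results known, had 14 in the table and 13 tested, of which 6 rose (46.2%, beside 19.0% of all genes) and 5 fell (38.5%, beside 17.6%). After correction for length and GC content HPN and HGFAC were no longer called higher (edgeR adjusted p = 0.865 and 0.323). ADAM17 was no longer called lower (edgeR adjusted p = 0.139), and PRSS8 became called lower (edgeR adjusted p = 0.0458). TMPRSS6, the liver protease matriptase-2, rose 5.79-fold, with 14.3, 12.9 and 10.3 CPM in 3D, against 1.69, 2.12 and 2.61 CPM in 2D (log2 2.53, SE 0.23, edgeR adjusted p = 4.95e-05). PLAUR, the urokinase receptor, averaged 4.31 ± 1.81 CPM in 3D and 0.946 ± 0.197 CPM in 2D (SD, n = 3 each), a rise of log2 2.16 (edgeR adjusted p = 0.00127). PLAU, urokinase, rose 2.74-fold. TMPRSS2, a surface serine protease, fell to 1.57 ± 0.598 CPM in 3D, against 4.44 ± 1.36 CPM in 2D (SD, n = 3 each; log2 −1.47, SE 0.35, edgeR adjusted p = 0.00706). MET, the receptor of hepatocyte growth factor, fell to 71.0 ± 4.0 CPM in 3D, against 130.2 ± 6.78 CPM in 2D (log2 −0.87, SE 0.11, edgeR adjusted p = 0.000261).

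ESRP2, a splicing factor of epithelial transcripts, was at 61.2, 53.3 and 59.5 CPM in 3D, against 49.7, 51.8 and 51.4 CPM in 2D and was not called (log2 0.19, SE 0.12, edgeR adjusted p = 0.236). All its 3D values were above the 2D values, by a small margin. Among 21 further epithelial and mesenchymal regulators and markers, from a list chosen with earlier results known, 14 were in the table and 9 were tested, of which 2 rose (22.2%, beside 19.0% of all genes) and 6 fell (66.7%, beside 17.6%). ZEB1, a repressor of CDH1 and other epithelial genes, fell to 13.4, 21.6 and 18.1 CPM in 3D, against 36.0, 33.9 and 35.9 CPM in 2D (log2 −0.98, SE 0.17, edgeR adjusted p = 0.00121). SNAI1, a further repressor of CDH1, was at 6.15, 4.52 and 3.37 CPM in 3D, against 2.57, 4.24 and 3.66 CPM in 2D and was not called (log2 0.41, SE 0.29, edgeR adjusted p = 0.297), and SNAI2 and ZEB2 had too few counts to test. Of the epithelial factors, ELF3 rose (log2 0.60, SE 0.16, edgeR adjusted p = 0.0111), whereas GRHL1 (log2 −0.65), KLF4 (log2 −1.01) and KLF5 (log2 −0.94) fell. Genes often read as mesenchymal went both ways. S100A4 averaged 18.9 ± 4.96 CPM in 3D and 2.66 ± 1.37 CPM in 2D (SD, n = 3 each), a rise of log2 2.81 (edgeR adjusted p = 0.000253). FN1 (log2 −0.78) and MMP2 (log2 −1.12) fell.

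Genes whose proteins work with the listed junction proteins fell more often than they rose. Of 47 such partners, from a list chosen with earlier results known, 41 were in the table and 39 were tested, of which 3 rose (7.69%, beside 19.0% of all genes) and 11 fell (28.2%, beside 17.6%). Their median log2 fold change was −0.10. After correction for length and GC content 4 of the 39 rose and 12 fell, where 16.8% and 17.5% of all genes did. Of these, 2 and 8 were among those called without the correction. PPL, periplakin, a plakin that binds keratins, had the largest fall, with 24.8, 16.3 and 10.9 CPM in 3D, against 33.1, 37.8 and 34.6 CPM in 2D (log2 −1.03, SE 0.24, edgeR adjusted p = 0.00847). EVPL, envoplakin, its partner plakin, rose 2.45-fold, with 61.1, 40.5 and 36.2 CPM in 3D, against 18.0, 17.1 and 20.9 CPM in 2D (log2 1.29, SE 0.19, edgeR adjusted p = 0.000592). PARD3, a scaffold of the polarity complex at tight junctions, fell to 61.0 ± 3.14 CPM in 3D, against 109 ± 3.29 CPM in 2D (log2 −0.84, SE 0.11, edgeR adjusted p = 0.000297), and MARVELD2, tricellulin of cell corners, to 23.0 ± 2.65 CPM in 3D, against 40.9 ± 7.02 CPM in 2D (log2 −0.82). NECTIN4, an adhesion molecule of epithelia, rose 3.28-fold, with 25.3, 18.2 and 19.1 CPM in 3D, against 6.07, 6.06 and 6.83 CPM in 2D (log2 1.72, SE 0.18, edgeR adjusted p = 9e-05). CTNNBIP1, an inhibitor of beta-catenin, rose 1.44-fold (log2 0.52, SE 0.12, edgeR adjusted p = 0.00656), a call lost after the correction for length and GC (edgeR adjusted p = 0.291). CTNNB1, beta-catenin, averaged 468 ± 60.9 CPM in 3D and 409 ± 22.5 CPM in 2D and was not called (edgeR adjusted p = 0.274).

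**Figure D3:**
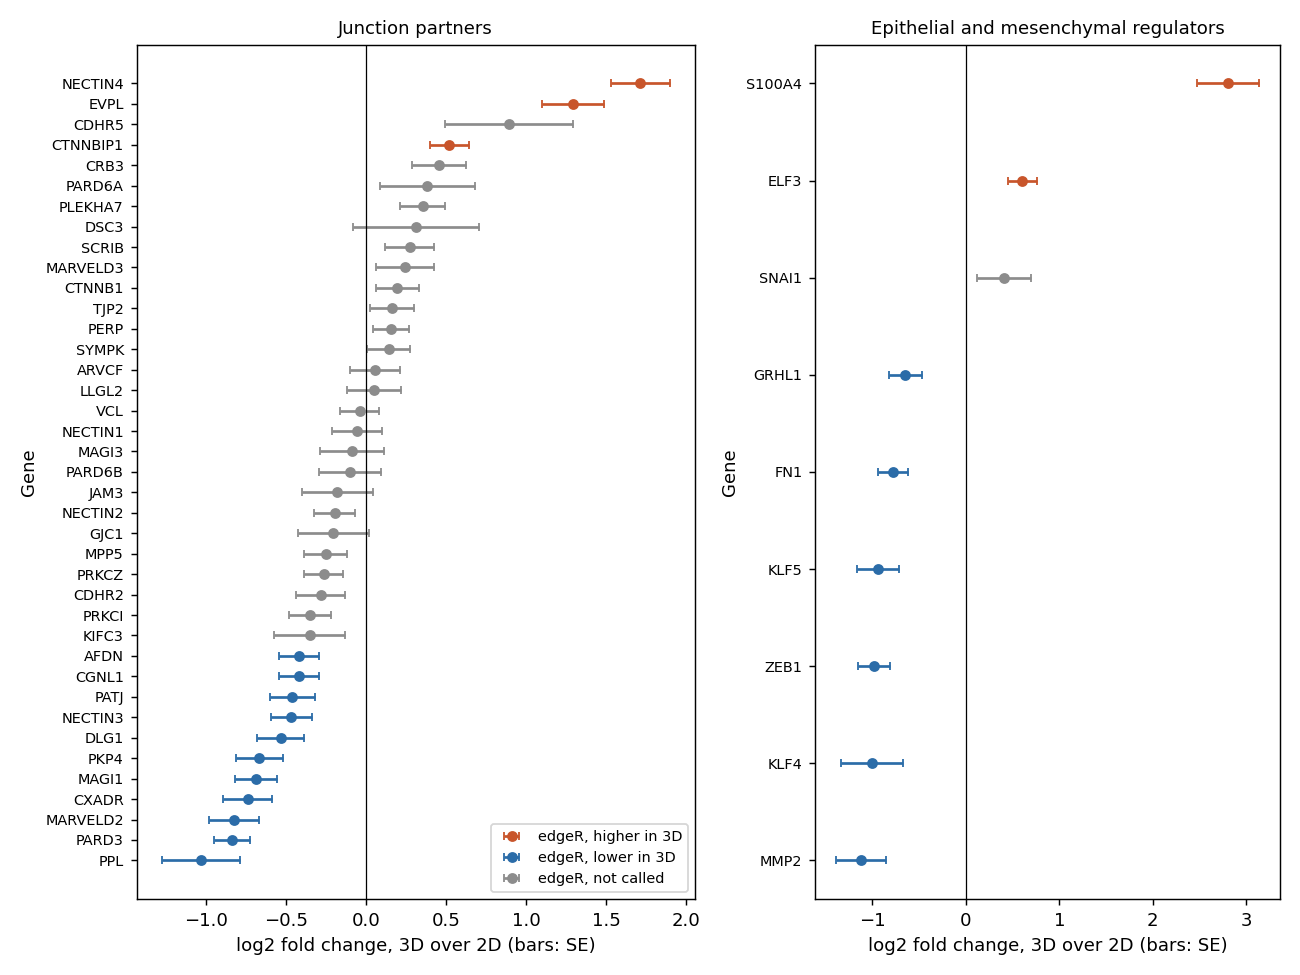
Log2 fold change, 3D over 2D, of the 39 tested junction partners (left) and the 9 tested epithelial and mesenchymal regulators and markers (right), with standard errors as bars. NECTIN4 and EVPL lie farthest to the right and PPL farthest to the left among the partners, and S100A4 and MMP2 lie at the ends of the other panel.

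The direction of change went with base composition and transcript length. The 8 genes that fell had transcripts with 37.8% to 49.2% GC (median 43.2%) and the 15 that rose 46.1% to 66.7% (median 57.7%). Median lengths were 3.50 kb for genes that fell and 2.81 kb for genes that rose. Across the 33 genes, which share their libraries, Spearman's rho of the log2 fold change was −0.37 with length and 0.65 with GC content. Across 13555 tested genes with a length it was −0.34 and 0.31. DSP and TJP1 are among the longest 10% of tested protein-coding genes, whose median log2 fold change was −0.42. After correction for length and GC content DSP had log2 −0.63, TJP1 log2 −0.54 and OCLN log2 −0.60. KRT19 and KRT8, short and GC-rich, had log2 1.28 and log2 0.84, while CDH1 had log2 3.19. All 8 genes that fell were still called after this correction, and of the 15 that rose GJB1 alone was not.

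**Figure D4:**
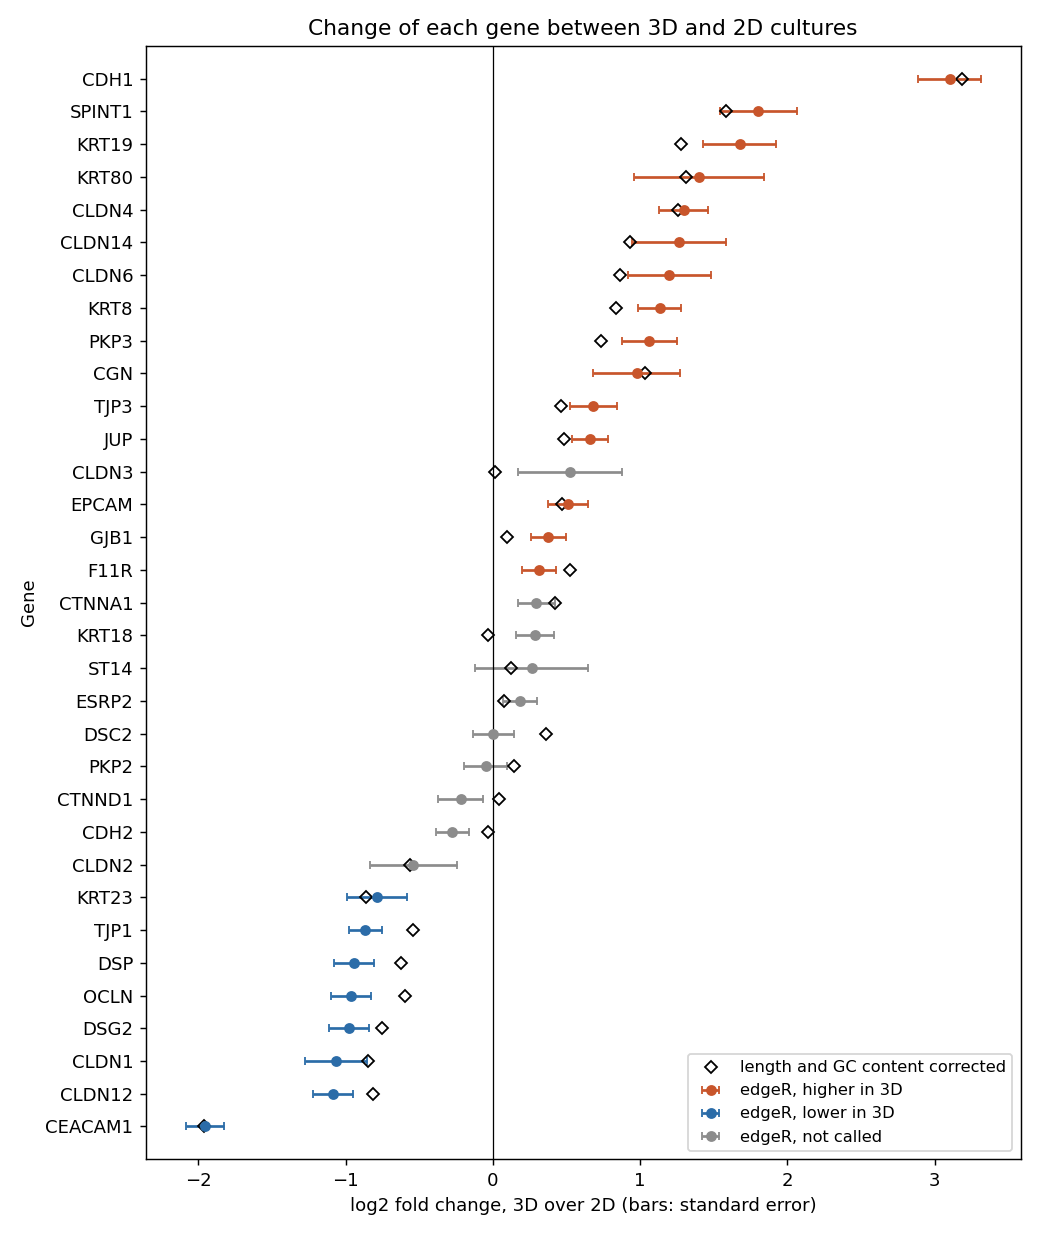
Log2 fold change, 3D over 2D, of the 33 tested genes in order of size, with standard errors as bars (filled circles, coloured by call), and the value after correction for transcript length and GC content (open diamonds). The diamonds of DSP, TJP1 and OCLN lie closer to 0 than the circles, and those of CDH1 and CEACAM1 lie near them.

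**Figure D5:**
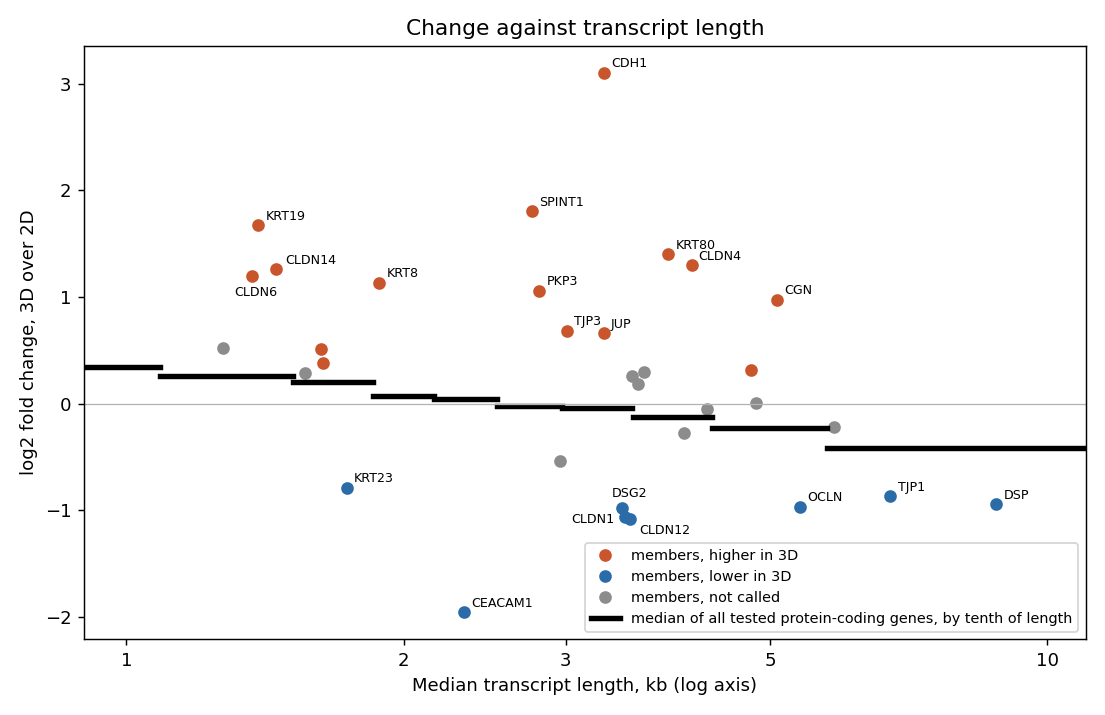
Log2 fold change, 3D over 2D, of the 33 tested genes against the median length of their transcripts in kb (log axis), with the median of all tested protein-coding genes in each of 10 classes of length as black bars. The black bars go from 0.35 in the shortest class to −0.42 in the longest, and all 8 genes that fell lie below the bar for their length.

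Per length, the order of abundance differed near the top. On the TPM scale, which divides counts by transcript length and was computed over the genes with a length, KRT8 averaged 1052 ± 261 TPM in 3D and 512 ± 41.5 TPM in 2D (SD, n = 3 each) and KRT18 770.3 ± 125 TPM in 3D and 677 ± 31.4 TPM in 2D. These were the highest levels of the list in either culture, with KRT8 the higher in every 3D sample and KRT18 in every 2D sample. KRT19 held rank 3 in 3D and 8 in 2D, with 288 ± 76.8 TPM in 3D and 96.6 ± 33.7 TPM in 2D. DSP held rank 6 in 3D and 3 in 2D, with 130.3 ± 26.0 TPM in 3D and 268 ± 9.24 TPM in 2D. CEACAM1 held rank 15 in 3D and 5 in 2D, with 34.4 ± 3.86 TPM in 3D and 144 ± 16.9 TPM in 2D. CDH1 held rank 21 in 3D and 26 in 2D.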

How the data were processed

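Messenger RNA of 3 samples of HepG2 cells from a bioreactor (3D) and 3 from plates (2D) was sequenced. Titles gave the groups. The tools STAR 2.4.1d and Partek and the genome build hg38 are listed per the submitters' processing notes, while annotation, counting and strand settings were not given in the sources used here. Values deposited by the authors are estimated counts per gene, unscaled, of which 61.7% were whole numbers (tolerance 0). They were rounded. The lowest total of a gene in the table was 10. No pair of replicates agreed within sampling noise (chi-square per degree of freedom 11.1 to 28.7).

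All genes passing filterByExpr entered an edgeR 4.0.16 quasi-likelihood fit (R 4.3.3, TMM scaling, culture as only term), with Benjamini-Hochberg adjustment over 15314 genes. Standard errors were derived from the F statistic. The scripts were tested on simulated data. Alternatives were DESeq2 1.42.0, limma-voom (limma 3.58.1), other scalings and filters, protein-coding genes only, the replicate block, a loess correction (span 0.5) for length and GC content, and omitted libraries. Lengths (median over the GENCODE 29 basic set), GC content and gene ends came from GENCODE, with values for 88.5% of tested genes. Its starts matched those of 15650 of 16155 genes. By rule, values of every sample are given for listed genes called with at least a 2-fold change at 1 CPM or more and for chosen key genes. Of the partner and protease lists up to 3 genes a direction are named. Named in addition are CTNNB1 and the protease genes whose call changed with the length and GC correction. Members and lists were chosen with earlier results of these data known. Protein sequences were not used here, and 1 gene of the regulator list is not reported here.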

Additional observations from a re-analysis of the deposited data

How the results depend on the processing

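Of the 23 called genes of the list, 16 kept their direction and call under all 18 alternatives: the 8 that fell, and CDH1, CLDN4, CLDN6, TJP3, JUP, PKP3, KRT8 and SPINT1. No called gene changed sign. With 1 library left out, 10 to 15 of the listed genes rose and 8 to 9 fell, against 15 and 8 with all. Over all genes these runs gave 1938 to 2817 higher and 1828 to 2792 lower, the lowest without 2D replicate 1. Among junction partners 3 to 5 rose and 7 to 12 fell, the fewest falls without 2D replicate 3 and the most rises without 3D replicate 2. Fewer samples enter each such run. Without 2D replicate 2 and 3D replicate 1 together 13 listed genes rose and 8 fell. The replicate numbers did not pair the samples: same-numbered samples correlated at 0.05, −0.01 and −0.08 in their deviations from group means, and not every sample correlated best with its own number. With the replicate block 14 listed genes rose and 8 fell, 4 and 11 partners, and 2747 and 2611 of all genes. F11R lost its call under it (edgeR adjusted p = 0.0864). With the block and the length and GC correction together, KRT19 (edgeR adjusted p = 0.0600) and CLDN14 (0.0564) lost theirs. KRT80 was not called by limma-voom (adjusted p = 0.0666). The rise in the CDH1 share of cadherin counts per length was 26.3 percentage points, and 21.1 with the longest transcript as length, by construction of that measure. Low counts left CLDN9, KRT7, KRT20 and SPINT2 untested.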

Other observations

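The table holds 27 further genes named as keratins, claudins, cadherins, connexins, desmosomal proteins or CEACAMs that are neither on the list nor among its partners. Of the 16 tested, 4 rose in 3D (25.0%, beside 19.0% of all genes) and 12 were not called. All 4 were chosen after their values were seen. KRT17, a type I keratin of stressed and basal epithelium with near-identical copies, stood at 8.03, 4.97 and 3.87 CPM in 3D, against 0.313, 0.667 and 0.167 CPM in 2D, and its groups did not overlap (log2 3.85, SE 0.46, edgeR adjusted p = 0.000183). CDH24, a cadherin, had 4.56, 2.07 and 2.46 CPM in 3D, against 1.44, 1.21 and 0.833 CPM in 2D (log2 1.36, SE 0.39, edgeR adjusted p = 0.0181). CDH15, M-cadherin, known from muscle, averaged 7.61 ± 2.20 CPM in 3D and 4.49 ± 0.256 CPM in 2D (SD, n = 3 each; log2 0.75, SE 0.24, edgeR adjusted p = 0.0312), and CLDN11, a claudin known from myelin and testis, 8.30 ± 0.819 CPM in 3D and 5.07 ± 1.62 CPM in 2D (log2 0.70, SE 0.24, edgeR adjusted p = 0.0417).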
